A study of Mus musculus with 2 samples.

Results

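Levels of 39 genes of macrophages, granulocytes and mast cells, with the chemokines that guide such cells, were read from 2 Affymetrix MOE430A arrays of the mouse cochlea at E18.5. The genes were listed by name, and all 39 were found among the 12393 genes that the arrays measured. They comprise 10 genes of leukocyte signalling and cytoskeleton, 14 genes of resident macrophages, 9 genes of granulocyte granules, 2 mast cell proteases and 4 chemokines or secreted factors. Each gene is given by the probe set that names it alone and has the highest mean level.

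The study asked which cochlear genes depend on insulin-like growth factor I. It compared *Igf1*-/- embryos, in which the gene was disrupted by targeting, with *Igf1*+/+ embryos, all from crosses of heterozygous C57BL/6J mice. The cochleae were pooled and included the otic capsule without vestibular tissue. The methods describe 3 RNA pools of each genotype, of 2 embryos each, and the labels 8 cochleae per array. The labels contradict each other, since the -/- title stands with a wild-type source name and description and the +/+ title with those of a null, so the genotype of neither array is settled. The names -/- array and +/+ array below are those of the titles only. All differences are log2 levels on the -/- array minus those on the +/+ array, after the median difference over all probe sets, 0.022, was subtracted. If the source names hold, every sign below turns. Each title has 1 column of values, called an array here as in the labels, and whether it holds 1 hybridisation or a summary of several pools is not stated. No difference could therefore be tested or given an error, and precision is limited by the number of arrays.

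Macrophages enter the embryonic cochlea from the circulation and live there in the spiral ganglion, the lateral wall and along vessels, where they take up debris. Their survival depends on the receptor CSF1R. Granulocytes carry antimicrobial enzymes in granules that are made as they mature in liver and marrow. Mast cells settle in connective tissue and store proteases and histamine. In pooled tissue such as this, fewer cells of a type and less RNA per cell cannot be told apart.

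The spread between the arrays depended strongly on level. Between probe sets of the same gene, the differences had an SD of 0.96 at mean levels below 5.73, of 0.40 from there to 8.02, and of 0.17 above, these levels dividing the genes into equal parts that are called the low, middle and high level bands. Of the members, 12 lay in the low band, 16 in the middle and 11 in the high one. A low level is near background, and values down to 0 occur there. On the -/- array, 1028 of 22626 probe sets were listed at 0, and 1310 on the +/+ array. No member was listed at 0 by the probe set used. The cochlear genes *Otor* and *Coch* were at 12.37 and 9.20 on the -/- array and at 12.57 and 9.58 on the +/+ array. *Igf1*, the targeted gene, was present on both arrays, at 11.03 on the -/- array and 11.42 on the +/+ array for its strongest probe set, a difference of -0.42. Its other probe sets differed by -0.75 and -0.58. All its probe sets were thus lower on the -/- array, by more than the SD of their level band. *Igf1* signal was still read on both arrays, so that it does not settle which of them is the null.

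Over the 39 members the median difference was 0.064, against 0.0083 over 12101 genes not listed at 0 on both arrays, and 23 members were higher and 16 lower on the -/- array. Past a limit of 1 log2 unit, used here for size alone, 1 member was higher, against 5.54% of all genes, and 4 were lower, against 4.07%. These 5 were *Camp* on the higher side and *Retnla*, *Ccl11*, *Mpo* and *Cd14* on the lower. All 5 lay in the low level band, in which 15.6% of genes were higher and 11.9% lower by as much. Of 12 members in the low band, 1 was thus higher and 4 were lower, and none of the other 27 passed the limit. Of genes of the middle band, 0.654% were higher and 0.218% lower by as much, and of genes of the high band 0.339% and 0.0968%.

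A yardstick that follows the level is the central 95% of the differences of the 1000 genes nearest in level, outside of which 4.6% of all genes lay, 2.32% above it and 2.28% below. It is wider than 1 log2 unit to either side for most low levels and narrower at high ones. It is a description of these arrays and was chosen after the values were seen. Outside it were 5 members. *Mrc1* was below its range, as were *Ccl11* and *Retnla*, and the mast cell genes *Cma1* and *Cpa3* were above theirs. The probe sets of *Igf1*, which is not a member, were also below such ranges, at -0.42, -0.75 and -0.58. Lower bounds of genes close to them in level were -0.24 (*Bex1*), -0.34 (*Csf1*) and -0.37 (*B3galnt2*).

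**Figure D1:**
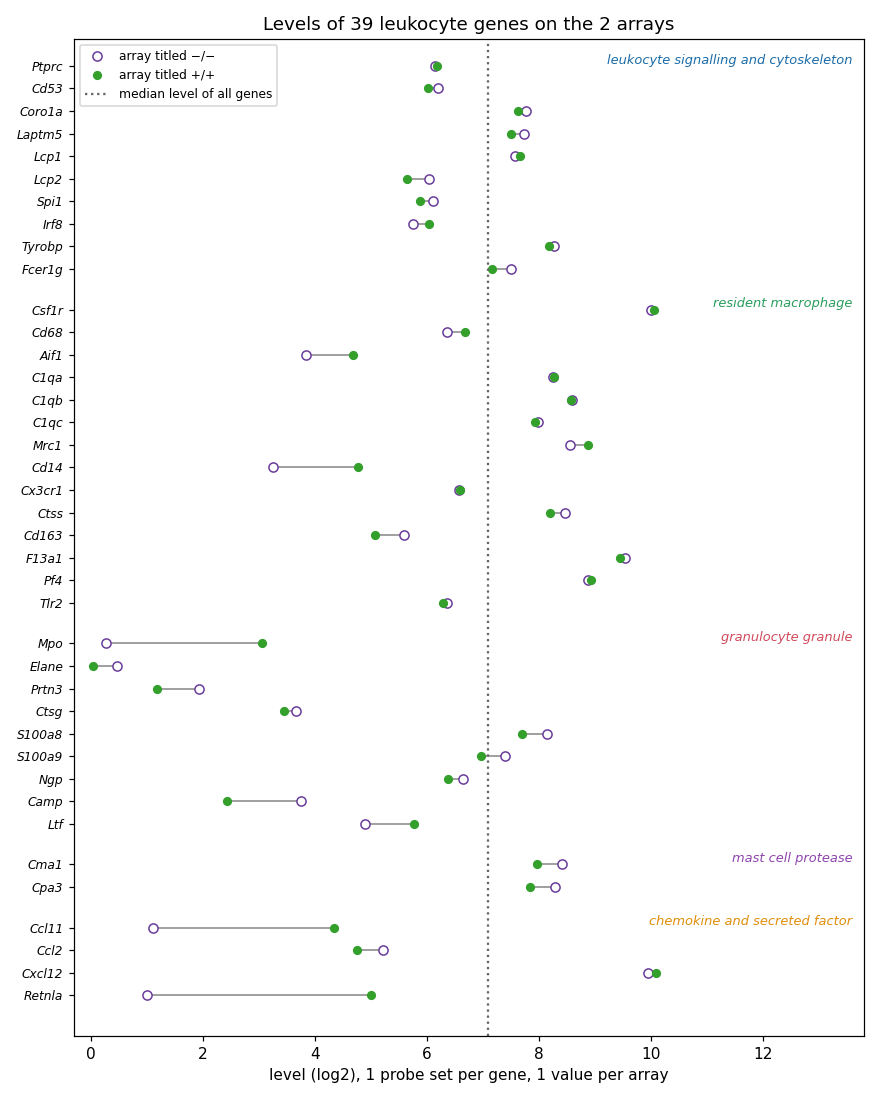
Log2 level of the 39 members on the -/- array (open purple) and the +/+ array (filled green), joined by a line. The dotted line is the median level of all genes, 7.10, and the long lines of *Retnla*, *Ccl11* and *Mpo* lie far to its left.

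**Figure D2:**
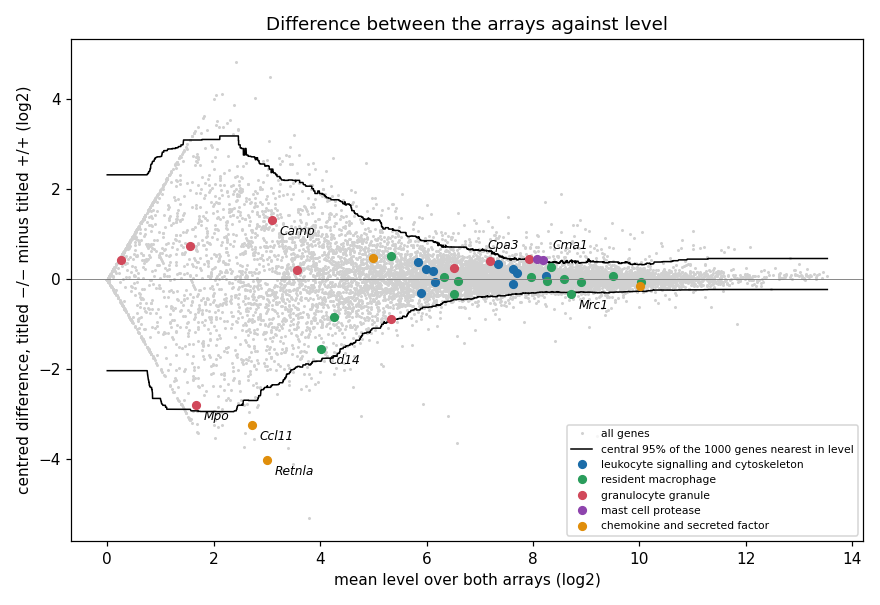
Centred log2 difference, titled -/- minus titled +/+, plotted by mean log2 level (1 point per gene), with all genes in grey and the members coloured by role. The black lines bound the central 95% of the 1000 genes nearest in level. *Cma1* and *Cpa3* sit just above the upper line, *Mrc1* just below the lower one, and *Ccl11* and *Retnla* well below it.

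Myeloid genes are read by factors such as PU.1, the product of the member gene *Spi1*, and by C/EBP and GATA factors. Promoter windows of 250 bases before the start site were taken from RefSeq for GRCm38.p6 and were found for 32 members. The other 7, *Csf1r*, *Ccl2*, *Ccl11*, *Spi1*, *Tyrobp*, *Cd14* and *C1qa*, were not searched. The letters GAGGAAGT, which contain the ETS core that PU.1 binds, were searched on both strands (ACTTCCTC on the other). They were found for 7 of the 32 members, or 21.9%, against 2.66% of 9887 measured genes with a window. These 7 members are of several roles, and their windows are shown because they share these letters, which are in capitals:
Mpo (chr11:87793534-87793783, plus strand): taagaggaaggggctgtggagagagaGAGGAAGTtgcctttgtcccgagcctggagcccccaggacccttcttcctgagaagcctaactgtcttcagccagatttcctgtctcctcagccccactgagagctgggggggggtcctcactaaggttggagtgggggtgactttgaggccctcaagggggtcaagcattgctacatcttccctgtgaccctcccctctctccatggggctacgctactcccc
Elane (chr10:79886062-79886311, plus strand): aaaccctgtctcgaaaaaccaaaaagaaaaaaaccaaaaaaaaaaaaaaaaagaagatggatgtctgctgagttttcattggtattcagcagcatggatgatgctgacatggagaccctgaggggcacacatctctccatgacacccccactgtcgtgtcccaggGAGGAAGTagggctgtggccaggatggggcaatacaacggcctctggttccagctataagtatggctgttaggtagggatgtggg
Prtn3 (chr10:79879417-79879666, plus strand): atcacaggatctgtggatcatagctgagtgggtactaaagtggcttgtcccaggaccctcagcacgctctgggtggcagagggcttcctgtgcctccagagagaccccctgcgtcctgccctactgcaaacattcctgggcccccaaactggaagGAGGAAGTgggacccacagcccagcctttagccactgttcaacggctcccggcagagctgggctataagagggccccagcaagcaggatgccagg
S100a8 (chr3:90668821-90669070, plus strand): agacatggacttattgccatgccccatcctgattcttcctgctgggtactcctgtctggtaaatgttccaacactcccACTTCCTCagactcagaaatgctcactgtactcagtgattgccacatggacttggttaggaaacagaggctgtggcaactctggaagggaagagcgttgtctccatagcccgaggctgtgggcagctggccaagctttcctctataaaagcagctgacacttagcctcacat
C1qc (chr4:136892915-136893164, minus strand): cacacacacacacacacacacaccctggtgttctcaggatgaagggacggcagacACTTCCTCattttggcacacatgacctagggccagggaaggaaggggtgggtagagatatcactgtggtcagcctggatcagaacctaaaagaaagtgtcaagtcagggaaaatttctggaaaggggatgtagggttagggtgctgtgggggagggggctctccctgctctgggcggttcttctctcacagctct
Pf4 (chr5:90772185-90772434, plus strand): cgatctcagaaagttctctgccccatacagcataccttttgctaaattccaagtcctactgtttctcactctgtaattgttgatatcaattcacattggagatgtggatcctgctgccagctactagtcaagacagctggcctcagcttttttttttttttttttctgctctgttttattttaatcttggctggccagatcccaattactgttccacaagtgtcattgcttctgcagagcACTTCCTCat
Retnla (chr16:48842359-48842608, plus strand): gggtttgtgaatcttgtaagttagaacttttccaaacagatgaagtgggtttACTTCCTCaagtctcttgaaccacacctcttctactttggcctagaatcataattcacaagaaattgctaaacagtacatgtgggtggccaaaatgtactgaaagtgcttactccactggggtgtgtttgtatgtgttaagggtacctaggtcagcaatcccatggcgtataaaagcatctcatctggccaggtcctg

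The GATA letters AGATAA, searched on both strands, were found for 5 of the 32 members, against 8.59% of measured genes, and among the mast cell genes for *Cpa3* and not *Cma1*. The C/EBP letters TTNNGCAA, searched likewise, were found for 6 members, against 9.98%. A match is a description of the letters, and binding was not measured. The 7 genes with the PU.1-type letters differed between the arrays by values from -4.03 for *Retnla* to 0.72 for *Prtn3*, with no direction in common. *Elane* and *Prtn3*, which are neighbours in the genome, both hold them.

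The 10 genes of leukocyte signalling and cytoskeleton had similar levels on both arrays. Their differences lay between -0.32 and 0.37 with a median of 0.14, 7 were higher and 3 lower on the -/- array, and none was outside the central 95%. *Ptprc* encodes CD45, the tyrosine phosphatase on the surface of leukocytes. It was at 6.14 on the -/- array and 6.19 on the +/+ array, a difference of -0.069. *Spi1* was at 6.11 on the -/- array and 5.88 on the +/+ array, a difference of 0.21. *Irf8*, a transcription factor of the monocyte lineage and partner of PU.1, was at 5.75 on the -/- array and 6.05 on the +/+ array, a difference of -0.32 in the opposite direction. Its weaker probe set differed by 0.66, so the gene has no settled direction.

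The adaptors *Tyrobp* and *Fcer1g* pass signals from activating receptors through ITAM motifs to the kinase SYK. *Tyrobp* was at 8.28 on the -/- array and 8.19 on the +/+ array, a difference of 0.067. *Fcer1g*, which also serves the IgE receptor of mast cells, was at 7.51 on the -/- array and 7.17 on the +/+ array, a difference of 0.32 within a range of -0.38 to 0.54 for genes of like level. *Lcp2*, the adaptor SLP-76, was at 6.05 on the -/- array and 5.65 on the +/+ array, a difference of 0.37. Its weaker probe set differed by -0.97. The tetraspanin gene *Cd53* differed by 0.16.

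*Coro1a*, the actin regulator coronin 1A, was at 7.78 on the -/- array and 7.63 on the +/+ array, a difference of 0.13. Its other probe sets differed by 0.17 and by 1.39, the last being listed at 0 on the +/+ array. *Laptm5*, a lysosomal membrane protein of blood cells, was at 7.74 on the -/- array and 7.50 on the +/+ array, a difference of 0.22, with -0.050 and 0.55 for its weaker probe sets. The dimmest probe sets of both genes thus stood farthest above 0. The brightest lay closest to 0 for *Coro1a* but not for *Laptm5*. *Lcp1*, the actin bundler L-plastin, was at 7.57 on the -/- array and 7.66 on the +/+ array, a difference of -0.11. The second probe set of *Lcp1* differed by 0.44. Of the 10 genes, 5 were above the median level of all genes. In all, the leukocyte genes were within 0.40 of equal levels by the probe sets used, which is the SD between probe sets in the middle band. With the mean over probe sets, *Coro1a* was at 0.56.

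The genes that mark resident macrophages mostly differed little. Of the 14, 6 were higher and 8 lower on the -/- array, with a median of -0.046. *Csf1r*, the receptor on which macrophages depend, was at 10.01 on the -/- array and 10.05 on the +/+ array, a difference of -0.067. Its other probe sets differed by 0.13 and 0.15. *F13a1*, the coagulation factor XIII A chain of tissue macrophages and platelets, was at 9.54 on the -/- array and 9.46 on the +/+ array, a difference of 0.064. *Pf4*, a chemokine of platelets that fetal macrophages also express, was at 8.88 on the -/- array and 8.93 on the +/+ array, a difference of -0.068.

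The chains of complement C1q, the molecule with which macrophages tag debris, are encoded by neighbouring genes and are assembled together. *C1qa* was at 8.25 on the -/- array and 8.27 on the +/+ array. *C1qb* was at 8.60 on the -/- array and 8.58 on the +/+ array. *C1qc* was at 7.98 on the -/- array and 7.93 on the +/+ array. Their differences were -0.041, 0.0034 and 0.034, all smaller than the SD between probe sets of the high band. The weaker probe sets of *C1qb* differed by 0.087 and -0.14.

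*Mrc1*, the mannose receptor CD206, stood apart from these. It was at 8.56 on the -/- array and 8.88 on the +/+ array, a difference of -0.34, below the range of -0.31 to 0.39 of genes of like level. *Ctss*, the lysosomal protease cathepsin S, was at 8.47 on the -/- array and 8.20 on the +/+ array, a difference of 0.25 inside its range. *Cd163*, the scavenger receptor for haemoglobin with haptoglobin, was at 5.59 on the -/- array and 5.07 on the +/+ array, a difference of 0.50 in the low band. The receptor genes *Mrc1* and *Cd163* thus differed in sign, but *Cd163* lay inside its range of -0.93 to 1.10. *Mrc1* is read by 1 probe set.

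*Cd68*, a glycoprotein of macrophage lysosomes, was at 6.37 on the -/- array and 6.68 on the +/+ array, a difference of -0.33. *Cx3cr1*, the fractalkine receptor, was at 6.57 on the -/- array and 6.60 on the +/+ array, a difference of -0.051. Its weaker probe set was at 4.01 on the -/- array and 1.67 on the +/+ array, which gives 2.31 at a level near background. The receptor gene *Tlr2*, a sensor of bacterial lipoproteins, was at 6.36 on the -/- array and 6.30 on the +/+ array, a difference of 0.039.

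The larger macrophage values came from the low band. *Cd14*, the co-receptor for bacterial lipopolysaccharide, was at 3.25 on the -/- array and 4.78 on the +/+ array, a difference of -1.55 inside the range of -1.83 to 1.89. *Aif1*, the actin-binding protein IBA1, was at 3.84 on the -/- array and 4.68 on the +/+ array, a difference of -0.86. With values below the 25th percentile of each array raised to it, *Cd14* differed by -0.69 and *Aif1* by -0.59.

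**Figure D3:**
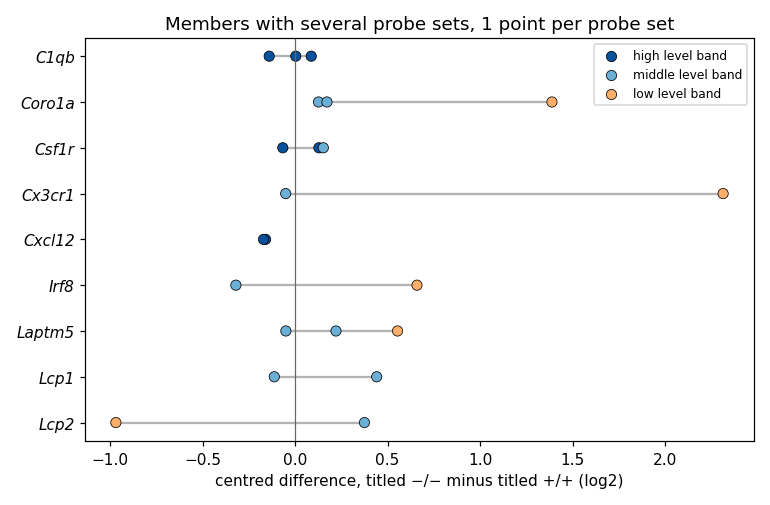
Centred log2 difference, titled -/- minus titled +/+, of each probe set of the members with several probe sets, coloured by level band. The probe sets of *Csf1r*, *C1qb* and *Cxcl12* lie within 0.3 of each other, while those of *Cx3cr1*, *Coro1a*, *Lcp2* and *Irf8* spread through a probe set of the low band.

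The granule genes of granulocytes split by level. The calprotectin chains *S100a8* and *S100a9*, calcium-binding proteins of neutrophils and monocytes, lie next to each other in the genome and had mean levels above the median of all genes. *S100a8* was at 8.16 on the -/- array and 7.69 on the +/+ array, a difference of 0.44 or a fold of 1.36. *S100a9* was at 7.39 on the -/- array and 6.98 on the +/+ array, a difference of 0.39 or a fold of 1.31. Both lay inside the range of genes of like level, which reached up to 0.45 for *S100a8* and 0.60 for *S100a9*. *Ngp*, neutrophilic granule protein, was at 6.64 on the -/- array and 6.37 on the +/+ array, a difference of 0.25.

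The other 6 granule genes were in the low band. Among these are the serine proteases of primary granules. *Elane*, neutrophil elastase, was at 0.47 on the -/- array and 0.038 on the +/+ array. *Prtn3*, proteinase 3, was at 1.93 on the -/- array and 1.19 on the +/+ array. *Ctsg*, cathepsin G, was at 3.66 on the -/- array and 3.45 on the +/+ array. Their differences of 0.41, 0.72 and 0.19 were below the SD of 0.96 between probe sets in this band. *Mpo*, the peroxidase of the same granules, was at 0.27 on the -/- array and 3.06 on the +/+ array, a difference of -2.81 that lay inside the range of -2.94 to 3.08. With low values raised to the 25th percentile all 4 had a difference of 0, so that no direction can be read from them.

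*Ltf*, the iron-binding lactoferrin of secondary granules, was at 4.89 on the -/- array and 5.77 on the +/+ array, a difference of -0.89 next to the lower bound of its range, -0.93. *Camp*, the cathelicidin peptide precursor of the same granules, was at 3.76 on the -/- array and 2.44 on the +/+ array, a difference of 1.30 inside its range. With low values raised to the 25th percentile, *Camp* had a difference of 0 and *Ltf* of -0.91. The 9 granule genes had a median of 0.39, with 7 higher and 2 lower on the -/- array, and none was outside its range.

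Of 21 further genes of granulocytes, 15 were measured and had a median of -0.072, with 7 higher and 8 lower on the -/- array. Of these, 3 were higher and 1 was lower by more than 1 log2 unit, all in the low band. In that band, 15.6% of all genes were higher and 11.9% lower by as much. *Mmp9*, a gelatinase of neutrophils that osteoclasts also make, was at 8.63 on the -/- array and 8.10 on the +/+ array, a difference of 0.50 above its range. *Lcn2*, lipocalin 2, was at 5.97 on the -/- array and 5.20 on the +/+ array. *Cxcr2*, the chemokine receptor of neutrophils and named after its value was seen, was at 0.98 on the -/- array and 4.52 on the +/+ array. Its difference of -3.57, in the low band, was below its range of -2.71 to 2.71.

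Both mast cell proteases were higher on the -/- array, by nearly the same value. *Cma1*, which encodes a chymase, was at 8.41 on the -/- array and 7.97 on the +/+ array, a difference of 0.42 or a fold of 1.34, above the range of -0.30 to 0.37 of genes of like level. *Cpa3*, the carboxypeptidase stored with it, was at 8.29 on the -/- array and 7.85 on the +/+ array, a difference of 0.43 or a fold of 1.34. The upper bound for *Cpa3* was 0.42, so that it was passed by little. Both genes are among the most abundant of mature mast cells, and both were above the median level on each array.

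Of 13 further mast cell genes, 11 were measured, of which 7 were higher and 4 lower on the -/- array, with a median of 0.38. *Kit*, the receptor for stem cell factor, which melanocytes also carry, was at 7.22 on the -/- array and 6.74 on the +/+ array, a difference of 0.47. The tryptase gene *Tpsb2* was at 7.07 on the -/- array and 6.67 on the +/+ array, a difference of 0.38. *Srgn*, the proteoglycan of the granules, was at 7.98 on the -/- array and 7.84 on the +/+ array, a difference of 0.12. Each of these values was inside its range.

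*Gata2*, a transcription factor of mast cells that other cochlear cells also express, went the other way. It was at 7.52 on the -/- array and 8.03 on the +/+ array, a difference of -0.53 below its range. Chosen after their values were seen, *Hdc*, the histamine-forming enzyme, differed by 0.45, *Tpsab1* by 0.45, *Hpgds* by 0.75, *Mcpt4*, another chymase, by 1.01 and *Mcpt2* by -0.076. All 5 were inside their ranges, and all but *Hdc* were in the low band. Of the chains of the IgE receptor, *Ms4a2* and *Fcer1a*, named for their role, were near background, unlike *Fcer1g*. *Ms4a2* was listed at 0 on the -/- array and was at 0.21 on the +/+ array, and *Fcer1a* was at 3.40 on the -/- array and 3.83 on the +/+ array. Over the 13 mast cell genes together, proteases included, 9 were higher and 4 lower with a median of 0.42. Over all 12393 genes, those listed at 0 on both arrays included, 50.5% were higher.

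The chemokines and secreted factors held the lowest differences among the members. *Retnla*, a resistin-like protein made by alternatively activated macrophages and by epithelium of the lung, was at 1.0 on the -/- array and 5.01 on the +/+ array, a difference of -4.03. *Ccl11*, the eosinophil attractant eotaxin, was at 1.11 on the -/- array and 4.34 on the +/+ array, a difference of -3.25. Both lay below their ranges, whose lower bounds were -2.41 and -2.71. With low values raised to the 25th percentile, the differences were -0.92 and -0.25, both inside 1 log2 unit, and that of *Ccl11* was then smaller in size than those of *Ltf*, *Cd14* and *Aif1*. *Ccl2*, which attracts monocytes and lies close to *Ccl11* in the genome with 1 gene between them, was at 5.23 on the -/- array and 4.75 on the +/+ array, a difference of 0.45 in the opposite direction.

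*Cxcl12*, a chemokine of stromal cells that retains blood cells in tissue, was at 9.95 on the -/- array and 10.09 on the +/+ array, a difference of -0.16. Its second probe set gave -0.17. The receptor *Cxcr4* was at 6.10 on the -/- array and 5.99 on the +/+ array, and the scavenging receptor *Ackr3* at 8.61 on the -/- array and 8.83 on the +/+ array, differences of 0.096 and -0.25. All 3 genes lay inside the range of genes of like level.

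Of 29 other chemokines, receptors and resistins, 27 were measured and 4, *Ccl24*, *Cxcl9*, *Ccr3* and *Retnlb*, were listed at 0 on both arrays. *Ccr3* encodes the receptor for eotaxin, the product of *Ccl11*. The remaining 23 had a median of -0.0067, with 1 higher and 3 lower by more than 1 log2 unit. Of all genes, 5.54% were higher and 4.07% lower by as much. In the low band, which held 17 of the 23, these shares were 15.6% and 11.9%. *Cxcl14*, a chemokine of epithelium and fibroblasts, was at 6.79 on the -/- array and 5.92 on the +/+ array, a difference of 0.85 above its range. *Cxcl15*, a chemokine of lung epithelium that was named after its value was seen, was at 4.56 on the -/- array and 7.32 on the +/+ array, a difference of -2.78 far below its range of -0.64 to 0.85.

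The lower values of *Retnla*, *Ccl11* and *Cxcl15* on the -/- array stood beside lower values of lists of other cell types. With low values raised to the 25th percentile, 4.13 on the -/- array and 4.09 on the +/+ array, *Retnla* and *Ccl11* differed by -0.92 and -0.25. The values of the lists that follow are without that step and are not to be set against these. All 13 measured genes of lung epithelium were lower, 7 of them by more than 1 log2 unit, against 4.07% of all genes. Their median was -1.42, and their log2 levels summed to 53.2 on the -/- array and 79.0 on the +/+ array. *Sftpc*, surfactant protein C, was at 7.47 on the -/- array and 10.94 on the +/+ array, and none of the 13 was listed at 0. Of 10 erythroid genes, 7 were lower and 3 higher with a median of -1.04, and their levels summed to 35.9 on the -/- array and 43.0 on the +/+ array. *Epb42* was listed at 0 on the +/+ array, and 8 of the 10 were in the low band. The 2 erythroid genes of the middle band had opposite signs. *Ank1*, an ankyrin of the red cell membrane, was at 7.73 on the -/- array and 6.85 on the +/+ array. Its difference of 0.86 was above its range. *Alas2*, the haem-forming enzyme of red cells, was at 7.69 on the -/- array and 8.11 on the +/+ array. Its difference of -0.44 was below its range. *Slc4a1*, of the low band, differed by -1.49 and was also below its range. Of 12 genes of the cochlea itself, 10 were also lower and 2 higher, with a median of -0.31, and their levels summed to 84.7 on the -/- array and 93.3 on the +/+ array.

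Of 6 genes of fetal liver, where granulocytes form before birth, *Fgb* was listed at 0 on both arrays and *Ahsg* on the -/- array. The 5 with a difference had a median of -2.56, and the levels of all 6 summed to 11.7 on the -/- array and 22.0 on the +/+ array. All 6 were in the low band. The part of lung, blood, liver or cochlear RNA in the values of the members was not tested. The summed levels of the 24 leukocyte and macrophage members were 171.4 on the -/- array and 172.4 on the +/+ array. Those of the 9 granule genes were 37.2 on the -/- array and 37.0 on the +/+ array. For the 4 chemokines and secreted factors they were 17.3 on the -/- array and 24.2 on the +/+ array. For all 39 members they were 242.6 on the -/- array and 249.4 on the +/+ array. All are sums of log2 levels and not amounts of RNA.

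The wider macrophage genes likewise lay mostly near 0. Of 29 listed genes, 26 were measured, and *Marco* of lung and spleen macrophages was listed at 0 on both arrays. Of the rest, 16 were higher and 9 lower on the -/- array with a median of 0.13, and 2 were higher and 1 was lower by more than 1 log2 unit. Of these genes, 13 were in the low band, in which 15.6% of all genes were higher and 11.9% lower by as much. *H2-Eb1*, named after its value was seen, was at 5.13 on the -/- array and 2.68 on the +/+ array. Its difference of 2.43 in the low band was above its upper bound of 1.89. The lysozyme gene *Lyz2* was at 8.17 on the -/- array and 7.92 on the +/+ array, a difference of 0.23. *Mertk*, the receptor for apoptotic cells, differed by 0.059, the scavenger receptor *Stab1* by -0.0061 and the lysosomal protease *Lgmn* by 0.15, all inside their ranges.

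The signalling partners of the adaptors had a median of 0.034 over 14 measured genes, 7 higher and 7 lower. *Plcg2*, *Ptpn6*, *Rac2* and *Arhgdib*, the 4 of the highest level, differed by 0.24, 0.091, 0.29 and -0.023. In the phagocyte oxidase, *Cyba* was at 9.09 on the -/- array and 9.03 on the +/+ array, while *Cybb*, its partner in the membrane, was at 1.27 on the -/- array and listed at 0 on the +/+ array. The cytosolic subunits *Ncf1* and *Ncf4* differed by 0.67 and 1.19 in the low band. None of the 4 lay outside its range.

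Among 7 complement genes, 5 were higher and 2 lower on the -/- array with a median of 0.23. *Serping1*, the C1 inhibitor, was at 9.37 on the -/- array and 9.12 on the +/+ array, and *C1s1*, the protease that C1q activates through C1r, at 6.23 on the -/- array and 5.74 on the +/+ array. In the pathway of *Tlr2* and *Cd14*, 9 measured genes had a median of -0.051. *Myd88*, the adaptor of Toll-like receptors, was at 6.88 on the -/- array and 7.25 on the +/+ array, and *Nfkbia*, an inhibitor and target of NF-kappaB, at 10.59 on the -/- array and 10.35 on the +/+ array.

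Osteoclasts, which arise from the macrophage lineage and remodel the otic capsule, were read by 7 genes with a median of 0.24. *Ctsk*, cathepsin K, was at 9.47 on the -/- array and 9.46 on the +/+ array. *Acp5*, the tartrate-resistant phosphatase, was at 6.26 on the -/- array and 6.75 on the +/+ array, a difference of -0.50 below its range. All 9 measured lymphocyte genes were in the low band, with 3 higher by more than 1 log2 unit on the -/- array and none lower. Of all genes of that band, 15.6% were higher and 11.9% lower by as much. *Cd79a*, named after its value was seen, differed by 2.32, above its upper bound of 2.05. Of 6 platelet genes, *Gp9* was listed at 0 on both arrays and the other 5 had a median of -0.19, beside the -0.068 of *Pf4*.

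**Figure D4:**
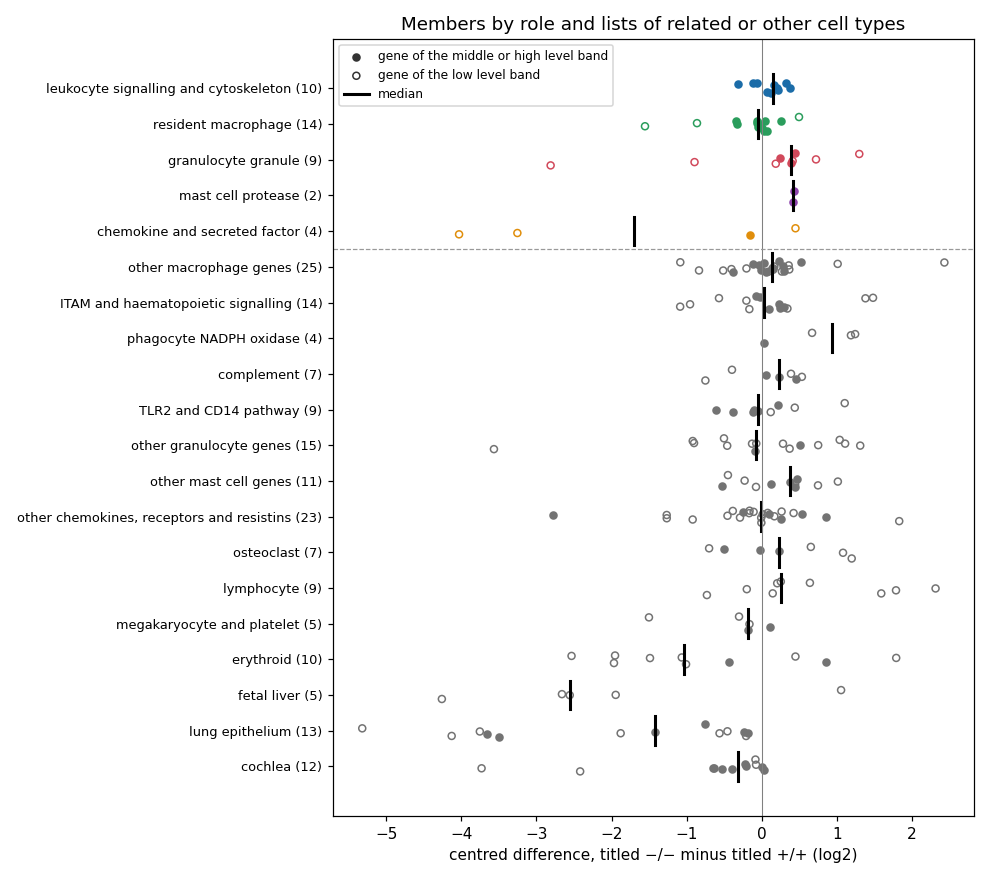
Centred log2 difference, titled -/- minus titled +/+, of the members by role (above the dashed line, coloured) and of the genes of other lists (grey), with the number of genes in parentheses, open points for the low level band and a black bar at the median. Genes listed at 0 on both arrays are left out. The lists of lung epithelium, erythroid cells and fetal liver have medians of -1.42, -1.04 and -2.56, and the leukocyte and macrophage members lie around 0.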

How the data were processed

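Cochlear RNA at E18.5 was labelled with biotin and hybridised by the authors to MOE430A arrays. For every probe set the authors deposited a level on a log2 scale. Their methods mention MAS5.0, RMA and PUMA (multi-mgMOS), without saying which one produced the deposited column or how it was scaled. The base of 2 was read from the largest value, 13.67, which lies between the natural log, 11.09, and the log2, 16, of the largest 16-bit intensity. Of 22690 probe sets, 64 controls were left out. Of the rest, 20380 name 1 gene in the platform annotation, 691 several and 1555 none, and 20351 matched the RefSeq table of GRCm38.p6 by gene identifier. Each gene was read from its brightest probe set on average, and probe sets with several symbols named none. Differences were centred on their median.

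All 39 members are named. Of each further list, at most the 4 genes of the highest mean level are named, together with any above the median level of all genes, 7.10, that passed 1 log2 unit those listed at 0, and others described as chosen after their values were seen or for their role. The members and lists were chosen with earlier results of these data known. In the medians and counts of the lists, genes at 0 on both arrays were given no difference. The 292 such genes stayed among the 12393 genes of the shares, the level bands and the ranges of genes of like level. The alternatives were no centring, quantile normalization, loess with a span of 0.3, values raised to the 25th percentile, genes above the median level, the mean over probe sets, leaving out _x_at and _s_at probe sets, and a limit of 2 log2 units. The steps were tested on simulated arrays. Motif matches were sought in the 250 bases before each RefSeq start site. The loess came from statsmodels 0.14.6, the figures from matplotlib 3.10.9 and the rest from Python 3.11.15 with pandas 2.3.3, numpy 2.4.6 and scipy 1.17.1.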

Additional observations from a re-analysis of the deposited data

How the results depend on the processing

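No paired analysis was possible because each title has 1 array, and no value is backed by a replicate. Under no centring, quantile normalization and loess, the 39 differences all kept their sign and moved by less than the SD between probe sets of their level band. The members past 1 log2 unit depended on the treatment of low values. With values raised to the 25th percentile, 0 were higher and 0 lower in place of 1 and 4, the same counts were found among the 18 members whose level exceeded the median gene, and the median of the chemokines and secreted factors was -0.21 in the first setting and -0.16, that of *Cxcl12* alone, in the second, in place of -1.71. *Mpo*, *Camp*, *Ccl11* and *Retnla* moved by more than that SD when values were raised, and *C1qb* turned to -0.0093. With the mean over the probe sets of a gene, 2 members were higher by more than 1 log2 unit, *Cx3cr1* at 1.13 beside *Camp*, and the sign turned for 6, *Lcp1*, *Lcp2*, *Irf8*, *Csf1r*, *C1qb* and *Cx3cr1*, while *Coro1a* at 0.56, *Lcp2* at -0.30, *Irf8* at 0.17 and *Cx3cr1* moved by more than that SD. At a limit of 2 log2 units, 0 were higher and 3 lower. The other medians by role moved by less than the SD of their level band under every alternative run, although that of the granule genes was 0.21 with quantile normalization and 0 with values raised, in place of 0.39, and that of the macrophage genes turned from -0.046 to 0.0085 with the mean over probe sets. Leaving out _x_at and _s_at probe sets moved none of the 36 members that kept one. Levels below 5.73 are where most of the spread lies, and the 12 members there are the least precisely read.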
